A study of Cavia porcellus with 12 samples.

Results

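Genes that copy DNA, and genes that take a cell from G1 into S phase, were compared between the livers of 6 guinea pigs with NASH (non-alcoholic steatohepatitis, a fatty liver with inflammation and injury) and 6 controls. They were chosen by name, from origin licensing to polymerases, nucleotide supply and the S-phase checkpoint. Of 39 such genes, 36 were among the 11896 human orthologue symbols of the deposited expression table. *E2F1*, *CCNE2* and *BRCA1* were not rows of that table and were not analysed here. All animals were female guinea pigs of the strain Dunkin Hartley, 10 weeks old on arrival, and were kept for 25 weeks on a chow diet (controls, healthy) or on a high-fat diet that also held sucrose and cholesterol (NASH). The animals with NASH had been picked for bridging fibrosis and the controls at random from animals without NASH or fibrosis, so that diet and disease cannot be told apart. Each animal gave 1 library from a frozen piece of the left lateral lobe of an unperfused liver. Hepatocyte markers (8 of 10 listed genes, *ALB* among them, were in the table, none of them at 0 in any animal) summed to 110400 to 140400 CPM in controls and 44980 to 72740 CPM in NASH. CPM are counts relative to the scaled size of the library.

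A cell prepares each origin of replication in G1. The origin recognition complex (ORC), CDC6 and CDT1 load the ring of MCM2 to MCM7, the core of the replicative helicase, onto the DNA, a step called licensing. At the start of S phase CDC45 and the GINS complex join the ring and make it an active helicase, DNA polymerase alpha and its primase start each new strand, and polymerases delta and epsilon extend the strands while held by the PCNA clamp. Hepatocytes of the adult liver mostly rest outside the cell cycle, and many of these genes are transcribed under E2F factors once a cell leaves that resting state.

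Libraries held 16980274 to 33091460 counts. They were scaled by TMM factors of 0.804 to 0.875 for controls and 1.116 to 1.241 for NASH. Where a gene had no count, 3 counts are still possible, equal to at most 0.214 CPM for controls and 0.105 CPM for NASH, by counting error alone. The quasi-likelihood test of edgeR was run on all 11896 genes, and DEGs are those whose adjusted p (Benjamini-Hochberg) was below 0.05. Fold changes are given as log2 of NASH over control with their standard error (SE). In liver tissue as a whole, a higher value from more cells of a kind and a higher value from more RNA in each cell cannot be told apart.

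Most of the 36 genes were higher in guinea pigs with NASH. By edgeR's test 25 were higher DEGs, 2 (*ORC1* and *GINS1*) were lower DEGs and 9 were not called. Over all genes tested 53.9% were DEGs, 27.9% higher and 26.0% lower (3318 and 3093 genes, or 7603 and 911 with no TMM factors). In 19 of the 36 genes every animal with NASH lay above every control, and in 0 of them every animal with NASH lay below, where 18.4% and 15.3% of all genes did so. The median log2 fold change was 0.78, with a range from −0.49 (*GINS1*) to 5.28 (*RRM2*), beside a median of 0.0018 over all genes.

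The expression table only holds genes with at least 200 counts over the 12 animals. The NASH libraries together held 1.67 times the scaled counts of the controls, so a gene with fewer than 74.8 control counts could pass only with a higher scaled level in NASH, and 9 of the 36 genes were of this kind. Their direction is therefore not evidence by itself. They were *CDC6*, *CDT1*, *CDC45*, *GINS4*, *POLE*, *RRM2*, *TYMS*, *CCNE1* and *UHRF1*. Among the other 27 genes 16 were higher DEGs, 2 were lower DEGs and 9 were not called, with a median log2 fold change of 0.53, and in 11 of them (40.7%) every animal with NASH lay above every control. *PCNA*, *POLA2* and *PRIM1* each stood on a count row that also carried another symbol, so that their values are uncertain.

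**Figure D1:**
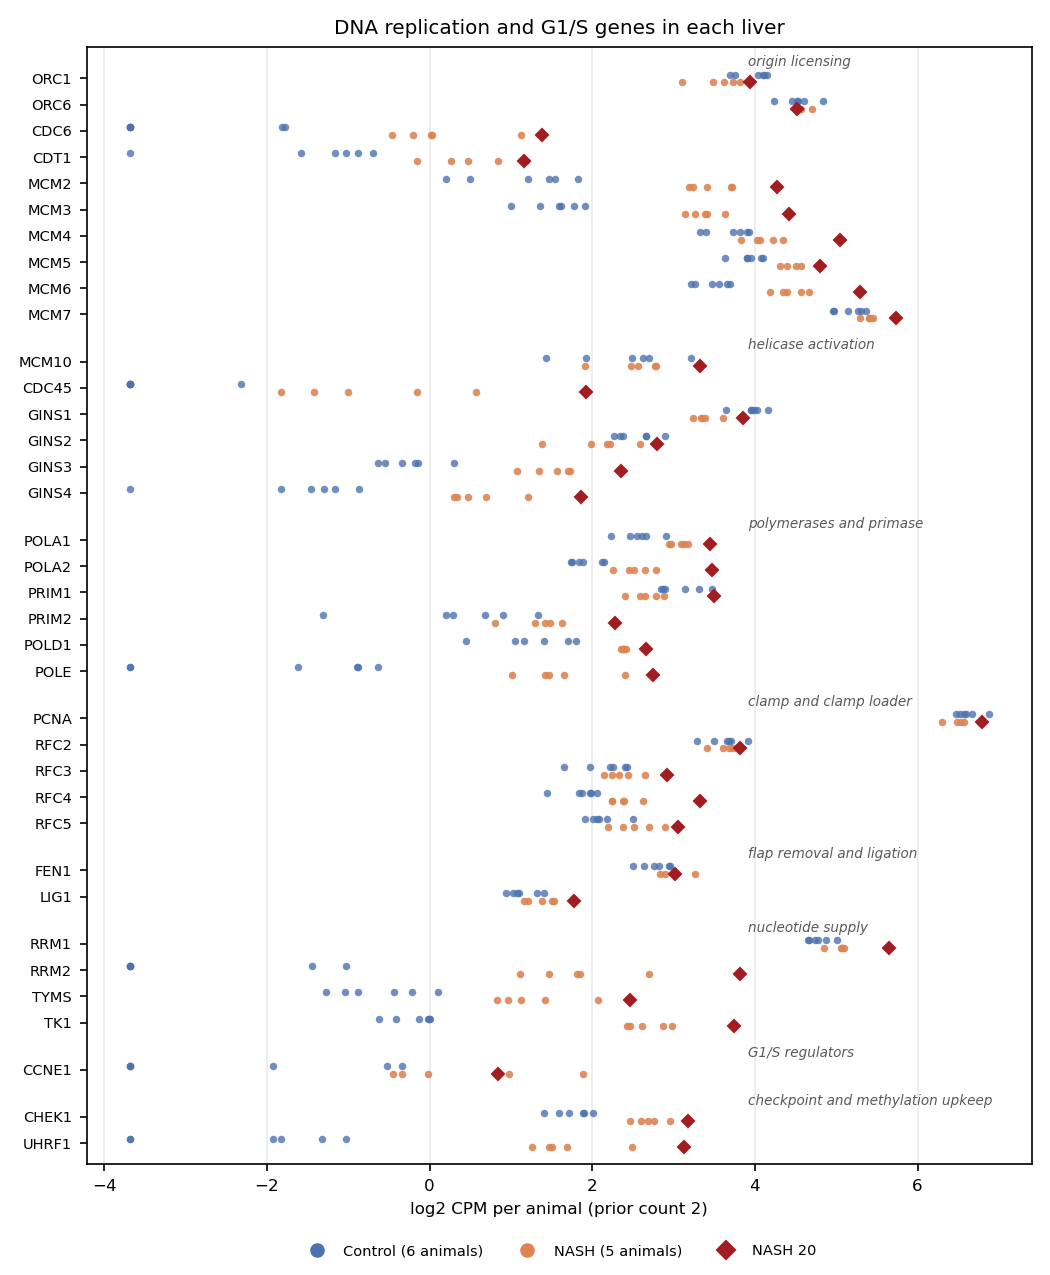
Expression of the 36 genes in each liver, as log2 CPM with a prior count of 2, grouped by role. Each point is 1 animal, blue for the 6 controls and orange for 5 animals with NASH, and the red diamond is NASH 20, which had the highest CPM of the NASH animals in 31 of the 36 genes. Points at the left edge are controls without a count.

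Most genes of origin licensing were higher. Of the 10 genes of this step, 8 were higher DEGs (beside 27.9% of all genes), *ORC1* was a lower DEG and *ORC6* was not called. Of the 8, *CDC6* and *CDT1* had to be higher to be in the table. *CDC6*, which together with ORC opens the ring for loading, had no count in 4 controls and at most 0.214 CPM in the other two, whereas the NASH animals had 0.646 CPM at the lowest, 0.94 at the median and 2.53 at the highest. The groups did not overlap, and the log2 fold change was 4.18 ± 0.73 (SE, edgeR adjusted p = 0.000366), or 5.12 without Control 45. *CDT1*, which brings the MCM ring to the origin, ranged from 0 to 0.539 CPM in controls (median 0.389) and from 0.819 to 2.19 CPM in NASH (median 1.52). The lowest NASH animal, NASH 11, lay above every control, and the log2 fold change was 2.15 ± 0.43 (SE, edgeR adjusted p = 0.000924).

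The subunits of the MCM ring, which is built from 1 copy of each of MCM2 to MCM7, all rose but by unequal amounts. *MCM2* had between 1.07 and 3.46 CPM in controls (median 2.46) and between 9.03 and 19.2 CPM in NASH (median 11.8), a log2 fold change of 2.42 ± 0.28 (SE, edgeR adjusted p = 1.33e-05). *MCM3* had between 1.93 and 3.69 CPM in controls (median 2.96) and between 8.72 and 21.2 CPM in NASH (median 10.5), a log2 fold change of 2.05 ± 0.23 (SE, edgeR adjusted p = 1.08e-05). In both genes the lowest NASH animal was NASH 65 and the highest NASH 20, and the groups were far apart. *MCM6* followed with 9.22 to 12.9 CPM in controls and 18.1 to 39.1 CPM in NASH, without overlap (log2 fold change 1.14 ± 0.18 SE, edgeR adjusted p = 0.000138).

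The remaining MCM subunits changed less. *MCM5* rose from 15.2 ± 1.69 CPM in controls to 23.7 ± 3.37 CPM in NASH (mean ± SD, n = 6 each), which is a log2 fold change of 0.64 ± 0.11 (SE, edgeR adjusted p = 0.00026), again with every NASH animal above every control. *MCM4* was between 9.96 and 15.2 CPM in controls and between 14.2 and 33.0 CPM in NASH, and the lowest NASH animal lay among the controls (log2 fold change 0.61 ± 0.20 SE, edgeR adjusted p = 0.0179). *MCM7* changed least, from 36.2 ± 4.27 CPM in controls to 43.8 ± 4.81 CPM in NASH (mean ± SD, n = 6 each), with a log2 fold change of 0.28 ± 0.09 (SE, edgeR adjusted p = 0.0246). The *MCM7* call was lost when Control 32, Control 45 or NASH 20 was left out (edgeR adjusted p of up to 0.0552).

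The ORC subunits did not follow the loading factors. *ORC1*, the subunit of ORC that varies most through the cell cycle, had a median of 16.7 CPM in controls (12.9 to 17.7) and 12.7 CPM in NASH (8.54 to 15.3). The groups overlapped, and the log2 fold change of −0.35 ± 0.14 (SE, edgeR adjusted p = 0.047) lost its call in 12 of 20 alternative analyses and turned to 0.13 with library size alone, which is −0.35 relative to the median of all genes in that setting. *ORC6* was at 23.2 ± 3.16 CPM in controls and 23.6 ± 1.22 CPM in NASH (mean ± SD, n = 6 each, log2 fold change 0.02 ± 0.09 SE, edgeR adjusted p = 0.857).

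Helicase activation divided between its genes. *CDC45*, the partner of MCM and GINS in the active helicase, had 3 counts in the controls together, all of them in Control 45, and 229 counts in NASH. Between 0.204 CPM (NASH 2) and 3.71 CPM (NASH 20) were measured in the animals with NASH, with a median of 0.619, and each of them lay above every control. Over all animals of a group, the scaled counts were 45.6 times as high in NASH, with an exact 95% interval from 15.4 to 222.8 that covers counting error only (edgeR adjusted p = 0.00139). NASH 20 held 119 of the 229 counts, and without it the ratio was 26.2 (8.75 to 129.2). Without Control 45 no control had a count, and the mean of the NASH animals was at least 6.73-fold higher than controls with 3 counts each would have had. *MCM10*, which helps to start the assembled helicase, was at 5.59 ± 2.30 CPM in controls and 6.40 ± 2.06 CPM in NASH (mean ± SD, n = 6 each) and was not called (log2 fold change 0.20 ± 0.29 SE, edgeR adjusted p = 0.58).

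The 4 subunits of GINS occur in equal number in the complex, yet their transcripts went different ways. *GINS3* had between 0.564 and 1.15 CPM in controls and between 2.03 and 5.02 CPM in NASH, without overlap (log2 fold change 1.99 ± 0.25 SE, edgeR adjusted p = 2.73e-05). *GINS4* had between 0 and 0.471 CPM in controls and between 1.16 and 3.55 CPM in NASH, again without overlap (log2 fold change 2.74 ± 0.49 SE, edgeR adjusted p = 0.000439). *GINS1* by contrast had a median of 15.6 CPM in controls (12.5 to 17.9) and 10.2 CPM in NASH (9.37 to 14.4). Only NASH 20 reached the range of the controls, and *GINS1* fell by 0.49 on the log2 scale (SE 0.12, edgeR adjusted p = 0.00319), a call that was lost with library size alone, where the value was −0.01, or −0.49 relative to the median of all genes in that setting. *GINS2* was at 5.79 ± 1.02 CPM in controls and 4.70 ± 1.54 CPM in NASH (mean ± SD, n = 6 each) and was not called (log2 fold change −0.30 ± 0.21 SE, edgeR adjusted p = 0.248).

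Among the polymerases *POLE*, the catalytic subunit of polymerase epsilon on the leading strand, changed most. It had no count in Control 5 and Control 56 and at most 0.564 CPM in the other controls, whereas the NASH animals had 1.93 CPM at the lowest, 2.88 at the median and 6.64 at the highest (log2 fold change 3.56 ± 0.55 SE, edgeR adjusted p = 0.000146). *POLD1*, the catalytic subunit of polymerase delta, had between 1.29 and 3.42 CPM in controls and between 5.02 and 6.23 CPM in NASH (log2 fold change 1.11 ± 0.19 SE, edgeR adjusted p = 0.000332). The NASH animals other than NASH 20 lay within 5.02 to 5.25 CPM of *POLD1*, and neither gene had overlapping groups.

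Polymerase alpha and its primase form a complex of POLA1, POLA2, PRIM1 and PRIM2. *POLA1*, its catalytic polymerase subunit, rose from 5.92 ± 0.93 CPM in controls to 8.71 ± 1.18 CPM in NASH (mean ± SD, n = 6 each), and *POLA2*, its regulatory subunit, from 3.72 ± 0.48 to 6.62 ± 2.29 CPM. Both were without overlap between groups, with log2 fold changes of 0.55 ± 0.12 and 0.83 ± 0.20 (SE, edgeR adjusted p = 0.00203 and 0.00289). *PRIM2*, the large subunit of primase, rose from 1.38 ± 0.72 to 2.86 ± 1.04 CPM with overlapping groups (log2 fold change 1.03 ± 0.37 SE, edgeR adjusted p = 0.0313), and its call was lost without Control 5, Control 56, NASH 11 or NASH 20 (edgeR adjusted p of up to 0.0759). *PRIM1*, the catalytic subunit of primase, was at 8.55 ± 1.63 CPM in controls and 7.13 ± 2.15 CPM in NASH and was not called (log2 fold change −0.26 ± 0.19 SE, edgeR adjusted p = 0.251). NASH 20 was the only animal with NASH in which *PRIM1* exceeded 7.3 CPM, and without it *PRIM1* was a lower DEG (log2 fold change −0.44, edgeR adjusted p = 0.021).

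The sliding clamp was not called, and 2 of the 5 genes of its loader were higher DEGs, beside 27.9% of all genes. *PCNA*, the clamp that holds polymerases on the DNA, was at 98.5 ± 10.4 CPM in controls and 96.2 ± 12.6 CPM in NASH (mean ± SD, n = 6 each, log2 fold change −0.03 ± 0.10 SE, edgeR adjusted p = 0.785). Its sign turned with the upper-quartile factors, with library size alone and in the test of all rows with a count. It also turned without Control 45 and without NASH 9. RFC2 to RFC5 are small subunits of the clamp loader RFC. *RFC4* rose from between 2.64 and 4.07 CPM in controls to between 4.64 and 9.91 CPM in NASH, without overlap (log2 fold change 0.72 ± 0.20 SE, edgeR adjusted p = 0.00735). *RFC5* rose by a log2 fold change of 0.53 ± 0.16 (SE, edgeR adjusted p = 0.0136) with overlapping groups. *RFC2* and *RFC3* were not called, with log2 fold changes of 0.04 ± 0.11 and 0.30 ± 0.17 (SE, edgeR adjusted p = 0.794 and 0.144). The large subunit *RFC1*, which was read with the other replication genes, was not called either (log2 fold change 0.06 ± 0.06 SE, edgeR adjusted p = 0.468).

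*FEN1*, which cuts the flaps between Okazaki fragments, and *LIG1*, the ligase that seals them, were not called either. *FEN1* was at 6.79 ± 0.82 CPM in controls and 8.02 ± 0.85 CPM in NASH (mean ± SD, n = 6 each, log2 fold change 0.24 ± 0.10 SE, edgeR adjusted p = 0.0634). *LIG1* was at 2.14 ± 0.29 and 2.64 ± 0.43 CPM (log2 fold change 0.30 ± 0.15 SE, edgeR adjusted p = 0.105). *FEN1* passed the threshold in 6 of 20 alternative analyses.

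Of the 4 genes of nucleotide supply all were higher DEGs, beside 27.9% of all genes. Because *RRM2* and *TYMS* had to be higher to be in the table, only the direction of *RRM1* and *TK1* is evidence by itself. *RRM2*, the small subunit of ribonucleotide reductase whose level rises in S phase, had no count in 4 controls, 0.288 CPM in Control 45 and 0.413 CPM in Control 32. The NASH animals had 2.07 CPM at the lowest (NASH 2), 3.48 at the median and 14.1 at the highest (NASH 20), and the log2 fold change was 5.28 ± 0.80 (SE, edgeR adjusted p = 0.000125), or 6.13 without Control 32. *RRM1*, the large subunit of the same enzyme, was already at 27.6 ± 2.73 CPM in controls and rose to 35.5 ± 7.49 CPM in NASH (mean ± SD, n = 6 each), which is a log2 fold change of 0.36 ± 0.12 (SE, edgeR adjusted p = 0.0239) with overlapping groups.

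Both enzymes that supply thymidylate were higher in every NASH animal than in any control. *TK1*, thymidine kinase of the salvage pathway, had between 0.572 and 0.923 CPM in controls (median 0.872) and between 5.31 and 13.3 CPM in NASH (median 6.63), a log2 fold change of 3.20 ± 0.26 (SE, edgeR adjusted p = 7.18e-07). *TYMS*, thymidylate synthase of the de novo pathway, had between 0.337 and 1.0 CPM in controls (median 0.562) and between 1.7 and 5.42 CPM in NASH (median 2.35), a log2 fold change of 2.28 ± 0.36 (SE, edgeR adjusted p = 0.000169).

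Regulators of S-phase entry and of chromatin behind the fork were higher too. *UHRF1*, which guides maintenance methylation to newly copied DNA, had between 0 and 0.412 CPM in controls (median 0.196) and between 2.31 and 8.70 CPM in NASH (median 2.95), a log2 fold change of 4.31 ± 0.56 (SE, edgeR adjusted p = 3.8e-05). *CHEK1*, the checkpoint kinase that restrains S phase when forks stall, had between 2.56 and 3.95 CPM in controls (median 3.42) and between 5.43 and 8.95 CPM in NASH (median 6.51), a log2 fold change of 1.04 ± 0.15 (SE, edgeR adjusted p = 6.68e-05). In neither gene did the groups overlap. *CCNE1*, cyclin E1, the partner of CDK2 at the G1/S transition, had no count in 3 controls but 0.715 CPM in Control 5, which lies above the 0.655 CPM of NASH 11 and the 0.714 CPM of NASH 2. Its highest NASH animals were NASH 41 with 3.62 CPM and NASH 65 with 1.89 CPM, which were also the highest in erythroid markers (4561 and 3300 CPM in sum), whose part was not tested. The log2 fold change was 2.65 ± 0.78 (SE, edgeR adjusted p = 0.0122), or 3.28 without Control 45.

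**Figure D2:**
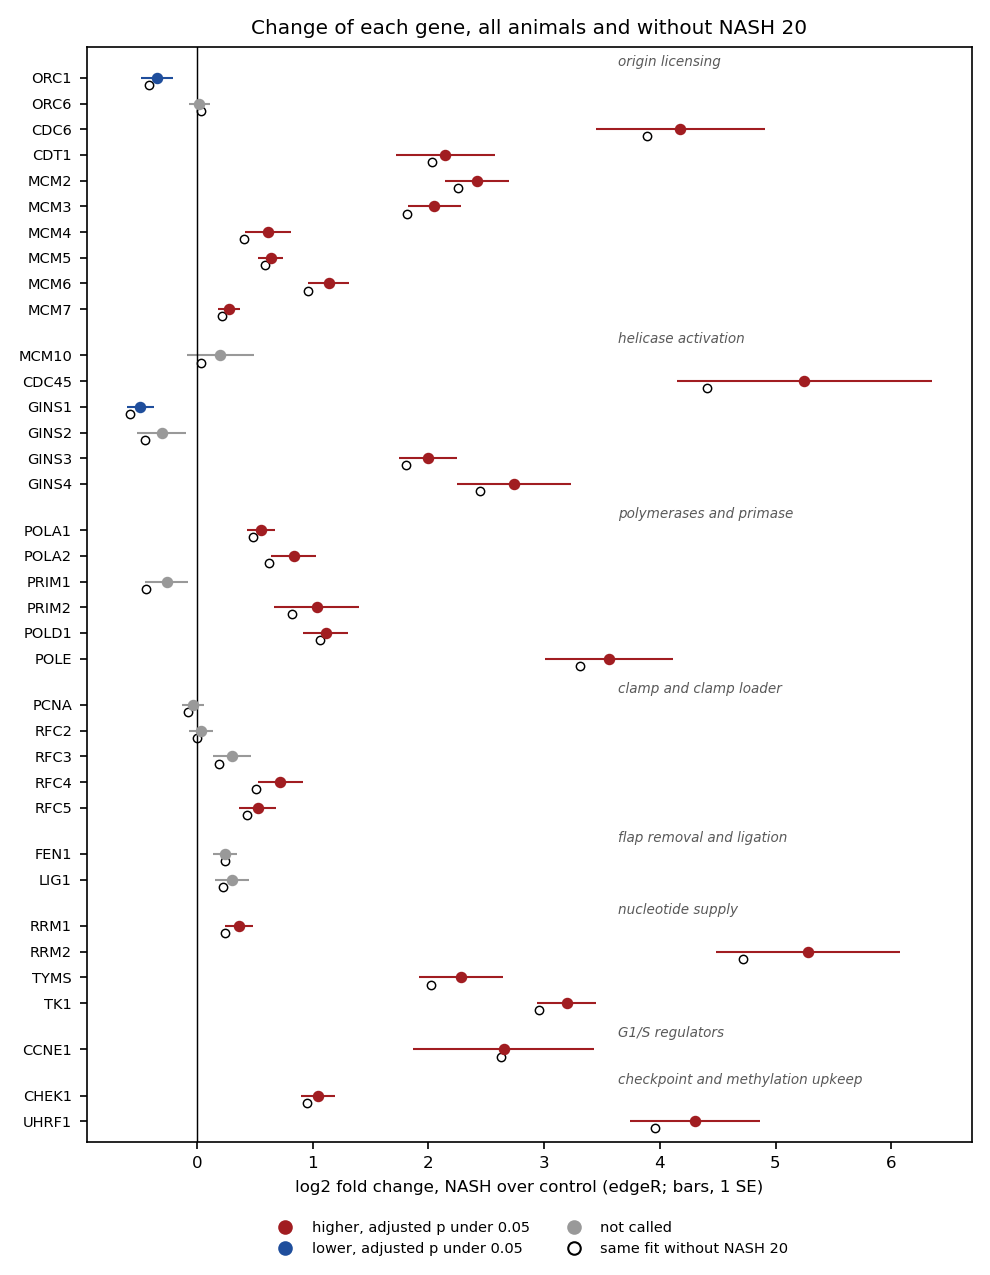
The log2 fold change of each of the 36 genes, NASH over control, with bars of 1 SE from edgeR. Red points are higher DEGs, blue points lower DEGs and grey points genes that were not called. Open circles give the same fit without NASH 20, and the value is lower there than with all animals in 35 of the 36 genes. The value of *CDC45* rests on 3 counts in the controls and depends on the prior count, and *ORC1* is lower with the TMM factors but 0.13 with library size alone.

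The unequal change of subunits was tested within each animal, a comparison chosen after the values were seen. For each of 34 pairs of genes, the difference of their log2 CPM was compared between 6 animals with NASH and 6 controls. The test was a two-sided exact permutation test, whose smallest possible p is 0.00216. Both genes of a pair came from the MCM ring, GINS, polymerase alpha and primase, RFC2 to RFC5 or ribonucleotide reductase. *ORC1* and *ORC6* were not paired. In 20 pairs the difference changed with a Benjamini-Hochberg adjusted p under 0.05 over the 34 pairs, 19 of them at the smallest p (exact permutation test, adjusted p = 0.00387). They were 11 of 15 pairs in the MCM ring, 4 of 6 in GINS, 3 of 6 in polymerase alpha and primase, 1 of 6 among RFC2 to RFC5 and the pair of ribonucleotide reductase. Of these, 3 set *GINS4* or *RRM2*, which had to be higher in NASH to be in the table, against another subunit, so that they are no evidence by themselves. Among the 30 pairs without such a gene, 17 were called. Pairs of a complex share genes, so that the 20 are not separate results. The share of pairs called among pairs drawn from all genes was not computed. In polymerase alpha and primase all 3 called pairs were those with *PRIM1*, whose count row is shared and uncertain, and 0 of the 3 pairs without it were called.

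As a description, *RRM1* minus *RRM2* changed by −4.65 on the log2 scale (SD 1.16 in controls and 0.78 in NASH) and *GINS1* minus *GINS4* by −3.02 (SD 1.08 and 0.50), where *RRM2* and *GINS4* are among the genes that had to be higher. *RRM2* had no count in most controls and *GINS4* none in Control 31, so that these sizes and the control SDs depend on the prior count. In the MCM ring, none of whose genes had to be higher, the widest change was that of *MCM2* minus *MCM7*, by 2.19 (SD 0.77 and 0.31). *MCM2* and *MCM3* changed by amounts that the test did not separate, with 0.47 between them (exact permutation p = 0.0974, adjusted p = 0.138), and so did *MCM4* and *MCM5* (−0.06, exact permutation p = 0.755). The same 20 pairs were called without NASH 20, where the smallest possible p is 0.00433.

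The animals with NASH differed among themselves, and NASH 20 was the highest of them for most of these genes. NASH 20 had the highest CPM of the NASH animals in 31 of the 36 genes and the lowest in 0. Counted over all genes on rlog values rather than CPM, it was highest in 22.9%. Its rlog value lay above the NASH mean in 35 of the 36 genes, by 0.289 on average, while the averages of the other NASH animals were between −0.086 and 0.048. Over all genes, the median deviation of NASH 20 was 0.004. Its library of 26391471 counts was within the range of the others.

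The excess in NASH 20 was not the same for each gene. Relative to the mean of the other 5 NASH animals, its CPM was 5.91 times as high for *CDC45*, 3.88 times for *RRM2*, 2.65 times for *UHRF1*, 2.39 times for *GINS4* and 2.34 times for *CDC6*. The ratio was 2.06 for *MCM3*, 1.27 for *MCM7* and 1.18 for *PCNA*. *ORC6* (0.959) was the only gene of the 36 that was lower in NASH 20 than in the mean of the others, and *FEN1* stood at 1.0. *FEN1*, *CCNE1* and *CDT1* were highest in NASH 41, *PCNA* in NASH 65 and *ORC6* in NASH 11. NASH 41 was second in 19 genes, among them *RRM2* with 6.40 CPM, *UHRF1* with 5.54 CPM and *POLE* with 5.23 CPM.

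**Figure D3:**
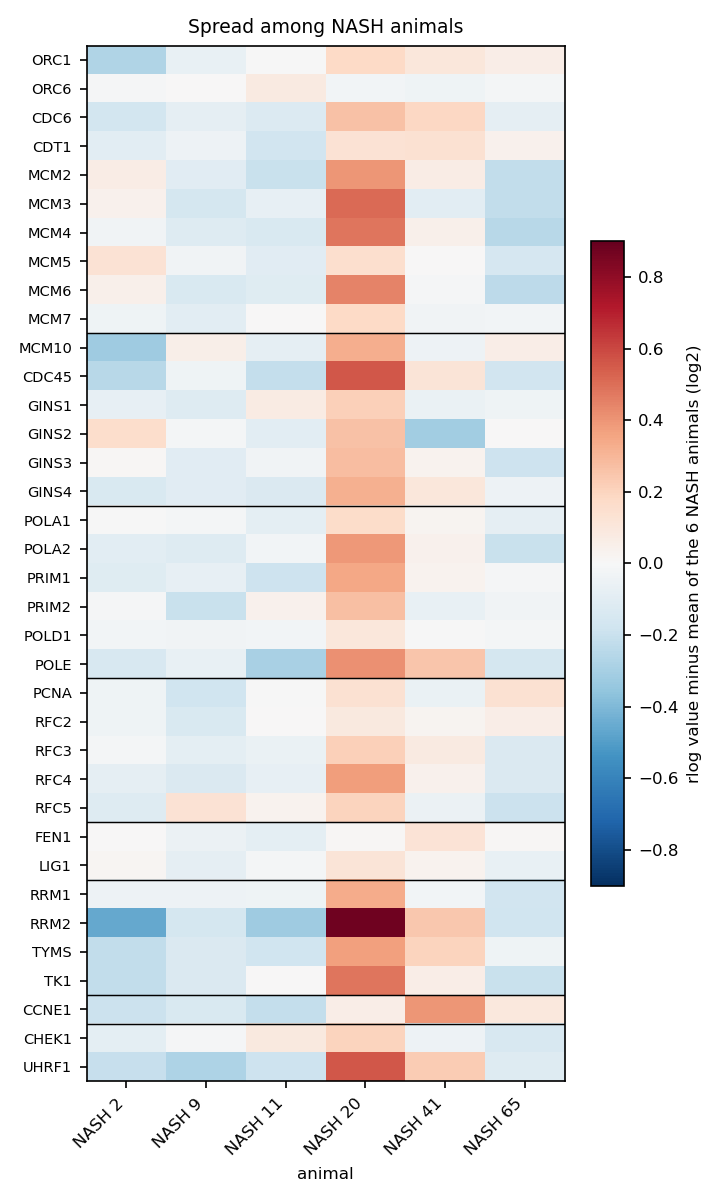
Deviation of each NASH animal from the mean of the 6 NASH animals, in deposited rlog values on the log2 scale, for the 36 genes in order of role. Red is above and blue below the mean. NASH 20 is above the mean in 35 genes and NASH 41 in 23, against 3 to 8 in the other animals.

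Within NASH, the SD of the rlog values had a median of 0.175 over the 36 genes, against 0.0906 within controls. Over all genes these medians were 0.095 and 0.108. The SD was larger in NASH than in controls for 28 of the 36 genes (77.8%) and for 40.4% of all genes. On rlog values *RRM2* (SD 0.49), *UHRF1* (0.327) and *CDC45* (0.305) spread most among NASH animals and *ORC6* (0.0426) least. On log2 CPM values the order at the top was another, with *CDC45* (SD 1.4), *RRM2* (0.985) and *CCNE1* (0.91), and *ORC6* (0.0723) was again the narrowest. Without NASH 20 the median SD in NASH was 0.103 and the number of genes with a larger SD in NASH 19 of 36 (52.8%, against 37.2% of all genes). The rlog transformation draws low counts together, and on log2 CPM values with a prior count of 2 the SD was larger in NASH for 19 of 36 genes (52.8%, against 36.2% of all genes). Without NASH 20 it was larger for 7 of 36 (19.4%, against 33.2% of all genes), and the median SD on this scale, 0.407 in NASH and 0.26 in controls with all animals, was then 0.198 in NASH. The wider spread in NASH on this scale therefore rests on NASH 20.

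Markers of other cell types moved with NASH 20 in part. The 5 cholangiocyte markers in the table, all higher DEGs and none at 0 in any animal, summed to 539 CPM in NASH 20, between 301.5 and 482 CPM in the other NASH animals and between 73.2 and 114.9 CPM in controls. The 10 markers of stellate cells and fibroblasts, 8 of them higher and 1 lower DEGs and none at 0, summed to 3245 CPM in NASH 20, between 1595 and 2709 CPM in the other NASH animals and between 730.5 and 873.3 CPM in controls. Of the cholangiocyte markers in NASH, *EPCAM* and *CFTR* were highest in NASH 20, *KRT7* and *KRT19* in NASH 2 and *SPP1* in NASH 11. Among the stellate cell and fibroblast markers, *COL1A1*, *COL1A2*, *COL3A1*, *LUM* and *RGS5* were highest in NASH 20. *PDGFRB*, *DCN*, *ACTA2* and *LRAT* were highest in NASH 2 and *DES* in NASH 9. NASH 20 was the lowest NASH animal in the sum of the hepatocyte markers (44980 CPM). The 8 T cell markers, 2 of them higher and 1 lower DEGs, summed to 51.3 CPM in NASH 20, between 52.5 and 78.7 CPM in the other NASH animals and between 66.1 and 120.3 CPM in controls, and without *CD3E* to 28.2 CPM in NASH 20, which was not the lowest (25.7 to 34.7 CPM in NASH, 13.7 to 21.1 CPM in controls). For the 10 macrophage markers, 3 of them higher DEGs, 2 lower DEGs (*MARCO* and *MRC1*) and 5 not called, NASH 20 had 1280 CPM and rank 3 of the 6 NASH animals (1092 to 1415 CPM in the others, 465.3 to 812.4 CPM in controls, *TREM2* at 0 in 5 controls). Without *GPNMB* the sums of the groups overlapped, with 451.1 to 754.6 CPM in controls and 657.9 to 853.3 CPM in NASH. For the 5 erythroid markers, all of them higher DEGs and *SLC4A1* at 0 in 3 controls, NASH 20 had 689.1 CPM and rank 5 (430.7 to 4561 CPM in the other NASH animals, 58.2 to 173 CPM in controls). The part of these cells in the values of the replication genes was not tested.

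Without NASH 20, 23 of the 36 genes were higher DEGs and 3 were lower DEGs, with a median log2 fold change of 0.61. *MCM7* (edgeR adjusted p = 0.0543) and *PRIM2* (edgeR adjusted p = 0.0759) were no longer called. *RRM2* remained at a log2 fold change of 4.72, *UHRF1* at 3.96, *CDC6* at 3.89, *TK1* at 2.96, *MCM2* at 2.25 and *MCM3* at 1.82.

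Other genes of the pathway were read from 3 lists. Of 45 further replication genes 39 were in the table, and 15 were higher DEGs, 4 lower DEGs and 20 not called, with a median log2 fold change of 0.16. That is 48.7% called and 38.5% higher, beside 53.9% and 27.9% of all genes. Of the higher DEGs 4 (*MTBP*, *POLE2*, *CHAF1B* and *CHTF18*) had to be higher to be in the table, so that their direction is no evidence by itself, and without them 11 of 35 genes were higher and the median was 0.07. *CHAF1B*, a subunit of the chromatin assembly factor CAF-1, had no count in any control and between 0.21 and 3.24 CPM in NASH. Its mean of 1.34 CPM was at least 8.3-fold higher than controls with 3 counts each would have had. *CHTF18*, of an alternative clamp loader, had between 0 and 0.826 CPM in controls and between 2.102 and 5.05 CPM in NASH. *MCMBP*, which binds MCM subunits, fell by 0.45 on the log2 scale (SE 0.14, edgeR adjusted p = 0.0146), a call that was lost with library size alone, where the value was 0.04, or −0.44 relative to the median of all genes.

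Of 24 other regulators of G1/S 19 were in the table, and 12 were higher DEGs, 1 a lower DEG and 6 not called, with a median log2 fold change of 0.37. That is 68.4% called and 63.2% higher, beside 53.9% and 27.9% of all genes. *MYC*, a transcription factor that drives growth and S-phase entry, rose from 3.06 ± 1.15 CPM to 16.2 ± 2.20 CPM (mean ± SD, n = 6 each), without overlap (log2 fold change 2.41 ± 0.23 SE, edgeR adjusted p = 3.26e-06). *E2F2* was not called, with a log2 fold change of 1.72 ± 0.87 (SE, edgeR adjusted p = 0.113). It was at 8.06 CPM in NASH 41 and 6.09 CPM in NASH 65, while the other NASH animals had 0.459 to 0.686 CPM, within the controls (0.247 to 1.88 CPM). The same animals stood highest in the sum of the 5 erythroid markers, with 4561 CPM in NASH 41 and 3300 CPM in NASH 65. The part of these cells in *E2F2* was not tested. *RB1*, the retinoblastoma protein that holds E2F in check, fell by 0.49 on the log2 scale (SE 0.13, edgeR adjusted p = 0.00561). Its call was lost with library size alone, where the value was −0.0065, or −0.48 relative to the median of all genes. Its relative *RBL2* was not called (log2 fold change −0.28 ± 0.19 SE, edgeR adjusted p = 0.229).

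Of 16 genes of G2 and mitosis 11 were in the table, and 10 (90.9%, beside 27.9% of all genes) were higher DEGs and 1 was not called, with a median log2 fold change of 3.05. Of these, 5 (*CCNA2*, *CCNB1*, *CCNB2*, *BUB1* and *AURKB*) had to be higher to be in the table. Of the other 6 genes 5 were higher DEGs, with a median of 2.08. *CCNB2*, a mitotic cyclin, had at most 0.205 CPM in controls and between 0.885 and 7.57 CPM in NASH (log2 fold change 5.44 ± 0.85 SE, edgeR adjusted p = 0.000162). *BUB1*, a kinase of the spindle checkpoint, had at most 0.337 CPM in controls and between 1.93 and 11.7 CPM in NASH (log2 fold change 5.27 ± 0.74 SE, edgeR adjusted p = 7.29e-05). *PLK1*, a mitotic kinase, rose by 0.48 ± 0.11 (SE, edgeR adjusted p = 0.00288), and *NUSAP1*, on a shared count row, was not called (0.35 ± 0.17 SE, edgeR adjusted p = 0.103). NASH 20 was the highest NASH animal in 11 of these 11 genes, in 30 of the 39 further replication genes and in 7 of the 19 other G1/S regulators.

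**Figure D4:**
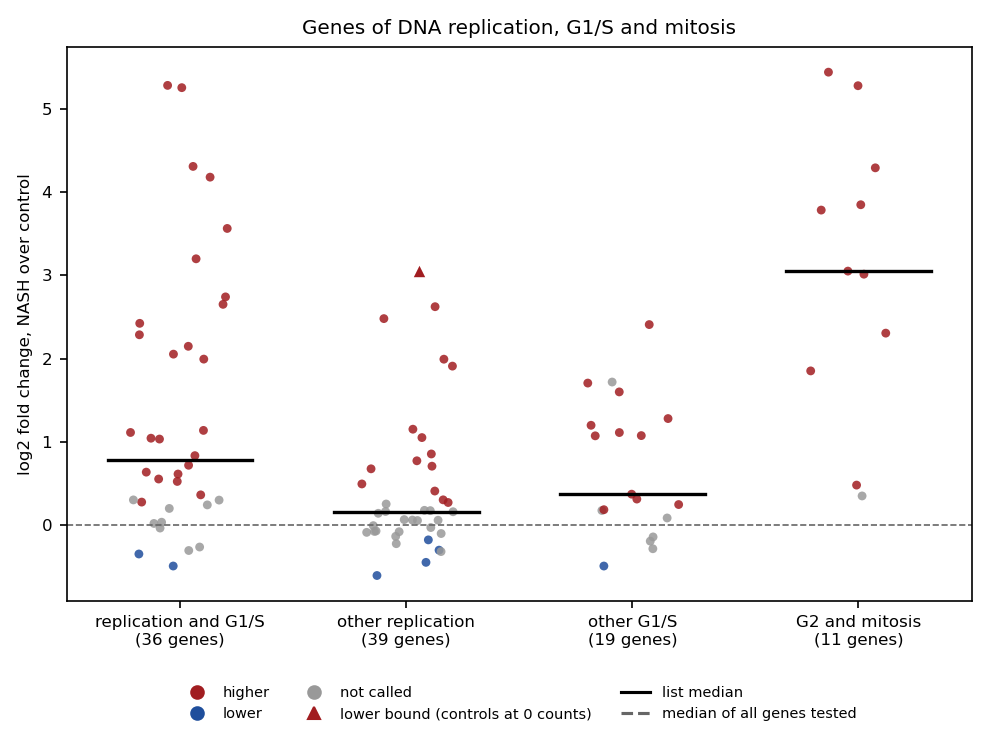
The log2 fold change, NASH over control, of the 36 genes and of the 3 lists of other pathway genes, with 1 point for each gene (red, higher DEG; blue, lower DEG; grey, not called). Black lines are list medians (0.78, 0.16, 0.37 and 3.05), the broken line is the median of all genes tested, and the triangle is the lower bound for *CHAF1B*.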

How the data were processed

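The authors trimmed reads with Trimmomatic 0.38.0, mapped them to the Cavpor3.0 genome with HISAT2 2.1.0, ignored multimapped reads and quantified loci with StringTie 1.3.6. They deposited raw counts for 39061 rows without symbols. The authors also deposited log2 values made by the rlog transformation of DESeq2 for 11896 human orthologue symbols. Symbols were tied to count rows by running that transformation again, which recovered every symbol within 8.35e-07, and 1515 symbols shared a row. Such reads cannot be divided between the symbols.

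Counts were analysed with edgeR 4.0.16 (TMM factors, whole-table library size, robust glmQLFit, glmQLFTest) in R 4.3.3, without covariates, and Benjamini-Hochberg adjusted over all 11896 symbols at 0.05. The SE is the log2 fold change over the square root of F. Log2 CPM values used a prior count of 2. Permutation tests used SciPy 1.17.1. Each animal is a separate sample, and every pair of animals of a group differed by more than counting error. No column of another sample was present, and no batch is named in the sources used here. The procedures were tested on simulated data.

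The genes and lists were chosen with earlier results of these data known. All 36 genes are named, and from each list of other pathway genes the 2 with the highest and the 2 with the lowest log2 fold change. A gene that this rule covers is not reported here. Alternatives were RLE and upper-quartile factors, library size alone, DESeq2 1.42.0, limma 3.58.1 (voom, and on rlog values), a test of all rows that held 1 count or more, the filter of filterByExpr, 0.01 as the threshold, and the removal of each animal. Of the marker lists, B cells and plasma cells (4 genes in the table), neutrophils (3) and endothelial cells (7) had 3, 2 and 3 higher and 0, 0 and 1 lower DEGs, the macrophage list 3 higher and 2 lower, the T cell list 2 higher and 1 lower, the erythroid list 5 higher and the hepatocyte list 7 lower. No sequences are given.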

Additional observations from a re-analysis of the deposited data

Results flagged for a closer look

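In 14 of 72 groups (36 genes in controls and in NASH) an animal stood apart from the other 5. The gap to the nearest of them was above 0.625 of the whole range (Dixon's 95% limit for 6 samples). The groups are genes of the same animals and are not independent, so that their number cannot be set against a chance rate. The share over all genes was not computed. In 12 of the 14 groups the animal was NASH 20 at the top of the NASH group. Its CPM was 21.2 for *MCM3*, 33.0 for *MCM4*, 39.1 for *MCM6* and 53.2 for *MCM7*, where the next animal had 12.3, 20.3, 25.4 and 43.8. It was 3.71 for *CDC45*, 11.1 for *POLA2*, 11.3 for *PRIM1*, 6.23 for *POLD1* and 9.91 for *RFC4*, where the next animal had 1.40, 6.79, 7.30, 5.25 and 6.10. It was 50.3 for *RRM1*, 14.1 for *RRM2* and 13.3 for *TK1*, where the next animal had 34.1, 6.40 and 7.83. In the other two groups NASH 11 stood apart for *ORC6* with 25.9 CPM (next 23.7), and Control 45 for *CDC45* with 0.1235 CPM, which is 3 counts where the other controls had 0. With the others tied at 0 any count stands apart, and without that group the number was 13 of 71.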

How the results depend on the processing

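The number of called genes among the 36 was between 25 and 28 under each other tool, scaling and filter and with each animal left out, except that library size alone called 32, all higher, and a threshold of 0.01 called 20 (19 higher and 1 lower). Library size alone moved the median of all genes to 0.48, and the median of the 36 genes to 1.258, which is 0.78 above it. The median of the 36 genes was 0.31 with limma on rlog values, which shrink low counts, and between 0.61 (without NASH 20) and 0.84 with each animal left out. The median spread among NASH animals was 0.407 and 0.41 on log2 CPM with a prior count of 2 and 0.5 (0.198 and 0.2 without NASH 20, where controls had 0.26 and 0.264), and between 0.103 (without NASH 20) and 0.192 on rlog values with each NASH animal left out. With library size alone *ORC1* was at 0.13 and *PCNA* at 0.44, which are −0.35 and −0.04 relative to all genes. Of the 27 called genes, 23 kept their call in all 20 alternatives that refit the genes (*CDC45* in 19, since filterByExpr left it out), and *ORC1*, *MCM7*, *GINS1* and *PRIM2* lost it in at least 1. Of the 9 uncalled genes, 8 were called in at least 1. Without the 3 shared rows, 26 genes were called. Among the other pathway genes 42 were called, 28 at 0.01, 60 (all higher) with library size alone and 37 to 43 otherwise. NASH 20 was highest in 32 of 36 genes on rlog values, with RLE factors and with library size alone, and 20 subunit pairs were called with a prior count of 0.5 or 5 as well. Leaving out genes that had to be higher to pass the minimum count, a choice made after seeing the data, left 33 other pathway genes (28 higher) and 17 subunit pairs called. No paired analysis was possible because the groups share no animal number. Genes with few counts in controls (*CDC45*, *CDC6*, *RRM2*) have uncertain fold changes, and the p-values measure the spread between animals, not that of repeated samples of a liver.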

Other observations

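Cyclins, kinases and inhibitors of G1 are described here after their values were seen, with no test of them as a group. *CCND1* (log2 fold change 1.11 ± 0.25), *CCND3* (1.20 ± 0.15) and *CDK6* (1.28 ± 0.16), which act together to phosphorylate the retinoblastoma protein, were higher DEGs (SE, edgeR adjusted p = 0.00237, 2.32e-05 and 3.32e-05). Higher as well were *CDKN1A* (1.71 ± 0.16), *CDKN2C* (1.6 ± 0.27) and *CDKN2D* (1.08 ± 0.26), which encode inhibitors of cyclin-dependent kinases (SE, edgeR adjusted p = 2.76e-06, 0.000311 and 0.00364). *CDKN1A* was between 7.08 and 14.2 CPM in controls and between 30.8 and 41.2 CPM in NASH, and its lowest NASH animal was NASH 20. *CDKN2C* was between 2.83 and 3.79 CPM in controls and between 6.69 and 20.95 CPM in NASH, and its highest NASH animal was NASH 20. *CDK4* rose by 0.19 ± 0.06 (SE, edgeR adjusted p = 0.0213), and *CDK2* (0.18 ± 0.14, SE, edgeR adjusted p = 0.289) was not called. *CDKN1B* was not called (−0.19 ± 0.17, SE; edgeR adjusted p = 0.366).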
